A study of Mus musculus with 8 samples.

Results

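The Notch receptors, ligands and targets read in these libraries were 10 genes, chosen by name: the receptors Notch1, Notch2 and Notch3, the ligands Jag1 and Jag2, the nuclear effector Rbpj, the targets Hes1, Hey1 and Heyl, and the feedback inhibitor Nrarp. They were looked up among the 54532 genes of the deposited count files, and all 10 were found. Of these, 8 had above 1 CPM (the count scaled to a common library total) in 2 or more of the 8 libraries and entered the test, while Notch3 and Heyl did not. The cells were 4T1, a mouse mammary carcinoma line used as a model of triple-negative breast cancer. A line with stable shRNA knockdown of MCT-1, the product of the gene Mcts1, is called shMCT-1 and was set against a line with a scramble shRNA, both selected with puromycin. A single shRNA sequence was used against the mouse gene, and whether each line was a clone or a pool is not given in the sources used here. For 48 h the cells received control IgG or 100 ng/ml of an antibody that blocks the IL-6 receptor (anti-IL-6R), so that each line had 2 libraries with IgG and 2 with the antibody. The labels do not say whether the 2 libraries of a group came from separate cultures, so the p-values below measure the spread between libraries, which may be technical.

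Notch signaling passes between touching cells. A Jagged or Delta ligand on one cell binds a Notch receptor on its neighbour, ADAM proteases and then the γ-secretase complex cut the receptor, and the released intracellular domain joins the DNA-binding protein RBPJ and a Mastermind coactivator to switch on genes such as the HES and HEY repressors. NRARP is itself a target and limits the signal by promoting loss of the intracellular domain. In the mammary gland the pathway takes part in the choice between luminal and basal fates, and it has been studied in breast cancer for its link to stem-like cells.

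Library totals ran from 24100084 to 33063570 counts in scramble and from 19839299 to 23448587 in shMCT-1, so every shMCT-1 library was shallower. The knockdown target Mcts1 stood at 11.8 to 15.4 CPM in the 4 scramble libraries and at 4.92 to 6.70 CPM in the 4 shMCT-1 libraries, a log2 difference of -1.10 ± 0.12 (SE) across both treatments (edgeR quasi-likelihood test, Benjamini-Hochberg adjusted p = 1.13e-05). Of 6 mammary epithelial markers, 5 were above 1 CPM in every library and Krt5 was at 0 throughout. The 5 endothelial markers summed to 0.096 to 0.332 CPM in scramble and 0.554 to 1.91 CPM in shMCT-1, the 5 perivascular markers to 2.41 to 3.34 and 1.28 to 1.33 CPM, and the 5 hematopoietic markers to 3.12 to 3.94 and 6.11 to 7.83 CPM, with Cd3e at 0. Most of the hematopoietic sum was Cd68, at 2.66 to 3.34 CPM in scramble and 5.42 to 7.51 CPM in shMCT-1. Ptprc, Csf1r and Itgam were at most at 0.596 CPM and overlapped between the lines. Most of the perivascular sum was Cspg4, at 2.28 to 3.12 and 0.756 to 1.15 CPM. Des went the other way, at 0 in scramble and 0.0455 to 0.454 CPM in shMCT-1, and Rgs5, Pdgfrb and Acta2 overlapped. Within the epithelial list, Epcam stood at 3.75 to 4.93 CPM in scramble and 49.4 to 54.5 CPM in shMCT-1. The part of these differences in any result below was not tested.

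In shMCT-1 cells the receptors Notch1 and Notch2 were lower and the ligands Jag1 and Jag2 were higher than in scramble cells, under IgG and under anti-IL-6R alike. Hes1, the best known target of the pathway, was lower as well, and Rbpj was lower by a small amount. No member differed between anti-IL-6R and IgG at an adjusted p under 0.05. Hes1 was the one member whose anti-IL-6R libraries lay below the IgG libraries in both lines, as 2.53% of all tested genes did. As RNA of a whole culture was measured, fewer cells of a kind and less RNA per cell cannot be told apart.

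**Figure D1:**
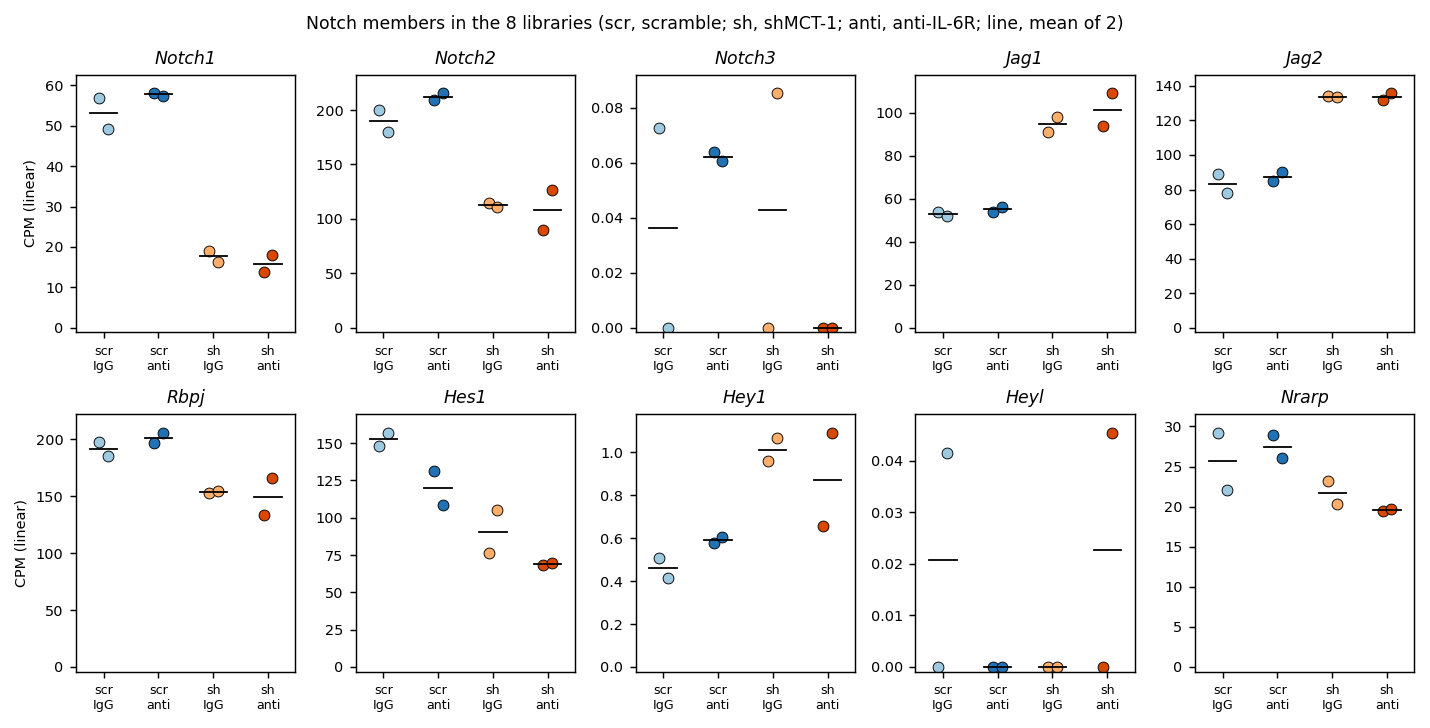
Level of each member in CPM on a linear axis, 1 point per library and a line at the mean of the 2 libraries of a group, with a scale of its own in each panel. Notch1, Notch2, Rbpj and Hes1 lie lower in all 4 shMCT-1 libraries, Jag1, Jag2 and Hey1 lie higher, Nrarp overlaps, and Notch3 and Heyl stay under 0.1 CPM.

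Across both treatments, 3 of the 8 tested members were called higher in shMCT-1 and 5 lower, where 35% of the 12704 genes tested were called higher, 34% lower and 69% in either direction. Within IgG, 3 were called higher and 4 lower, against 28.3% and 26.2% of all genes (54.4% in either direction). Within anti-IL-6R, 2 were called higher and 5 lower, against 26.9% and 27.3% of all genes (54.3% in either direction). With calls this common over the whole table, the count of called members was no result of its own, and the sizes are given below. The 4 shMCT-1 libraries did not overlap the 4 scramble libraries for 7 of the 8 tested members. They lay above them for Jag1, Jag2 and Hey1 and below them for Notch1, Notch2, Rbpj and Hes1. Among all tested genes, 29.9% lay wholly above and 34.2% wholly below. Hey1 passed the filter on low values only through 2 shMCT-1 libraries, so its place among the higher members was partly fixed by the filter. The median log2 difference of the 8 tested members was -0.32, that of all genes 0.01.

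Notch1 (ENSMUSG00000026923.15, GRCm38 chr2:26457903-26516663, minus strand) encodes a receptor with roles in many epithelia. It was measured at 56.9 and 49.3 CPM in scramble + IgG, 58.1 and 57.5 CPM in scramble + anti-IL-6R, 18.9 and 16.4 CPM in shMCT-1 + IgG, and 13.9 and 17.9 CPM in shMCT-1 + anti-IL-6R. The lowest scramble library thus stood far above the highest shMCT-1 library. The log2 difference was -1.55 ± 0.13 (SE) within IgG and -1.80 ± 0.13 within anti-IL-6R, and -1.67 ± 0.093 across both, a 3.19-fold lower level (edgeR quasi-likelihood test, adjusted p = 1.51e-07). Among the 8 tested members this was the change furthest from 0.

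Notch2 (ENSMUSG00000027878.11, chr3:98013527-98150361, plus strand) is the receptor with the highest counts here. Its 8 levels were 200.5 and 179.6 CPM in scramble + IgG, 209 and 215 CPM in scramble + anti-IL-6R, 114 and 111 CPM in shMCT-1 + IgG, and 89.8 and 126 CPM in shMCT-1 + anti-IL-6R. The backgrounds did not overlap, although the last group spread more than the others. The log2 difference was -0.71 ± 0.13 within IgG, -0.92 ± 0.13 within anti-IL-6R and -0.82 ± 0.094 across both (edgeR quasi-likelihood test, adjusted p = 2.24e-05). Notch3 (ENSMUSG00000038146.7, chr17:32120820-32166852, minus strand) had at most 2 counts in any library, under 0.1 CPM, so no difference was detectable at this depth. A count of 0 allows up to 3 counts, which is 0.0907 to 0.151 CPM in these libraries for counting error only.

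The stretch just upstream of the start site was read for the receptors and for Rbpj and Nrarp, from RefSeq promoters of GRCm38.p6 that run from 250 bases before to 50 bases after the start. A promoter was held for 7 of the 10 members, not for Hes1, Hey1 and Heyl. The part shown ends before the first annotated exon met within that window. Capitals mark matches on either strand to TGGGAA (the core of the RBPJ site), CACNAG (the N box, bound by HES repressors) or CACGTG (an E box, bound by HEY repressors). The 4 lines, each 5′ to 3′ on the strand of the gene, are Notch1 at chr2:26503825-26504072 (minus), Notch2 at chr3:98013288-98013526 (plus), Rbpj at chr5:53590096-53590213 (plus) and Nrarp at chr2:25180508-25180757 (plus). Those of Notch1 and Rbpj lie within the gene's annotated span, since longer transcripts start further upstream.
Notch1: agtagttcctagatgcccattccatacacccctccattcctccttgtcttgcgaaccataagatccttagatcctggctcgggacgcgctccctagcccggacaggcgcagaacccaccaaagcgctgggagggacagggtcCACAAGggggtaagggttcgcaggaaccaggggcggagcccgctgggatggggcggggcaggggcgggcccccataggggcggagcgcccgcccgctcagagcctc
Notch2: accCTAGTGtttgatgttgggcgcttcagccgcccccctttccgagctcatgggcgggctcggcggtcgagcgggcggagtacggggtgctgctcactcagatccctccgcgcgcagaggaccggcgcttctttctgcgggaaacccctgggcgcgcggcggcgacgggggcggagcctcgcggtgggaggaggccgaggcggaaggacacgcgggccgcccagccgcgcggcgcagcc
Rbpj: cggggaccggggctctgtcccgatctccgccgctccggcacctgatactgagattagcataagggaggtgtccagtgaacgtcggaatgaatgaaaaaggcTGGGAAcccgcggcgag
Nrarp: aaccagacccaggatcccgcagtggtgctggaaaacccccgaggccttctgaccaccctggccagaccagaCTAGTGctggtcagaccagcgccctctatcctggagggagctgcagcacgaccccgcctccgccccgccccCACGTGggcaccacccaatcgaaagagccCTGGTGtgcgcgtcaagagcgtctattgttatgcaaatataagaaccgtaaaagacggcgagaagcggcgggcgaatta

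In the full 300 bases, TGGGAA was found only in the windows of Rbpj, with 2 matches at its first start site and 1 at its second, whereas 25.6% of 32851 promoters of that length held it. CACNAG occurred 3 times for Notch1, once for Notch2, 2 times for Notch3 and 2 times for Nrarp, and in 42.5% of all promoters. The palindrome CACGTG was present only for Nrarp, once, and in 7.15% of all promoters. The palindrome TTCNNNGAA, a STAT site, matched only for Notch3, once, and in 8.3% of all promoters. No match overlapped another in the stretches shown. The windows of Notch1 and Notch2 were rich in G and C, at 68.3% and 73%, where the median promoter had 52.7%. A match describes these letters only, and no binding was measured.

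Jag1 (ENSMUSG00000027276.7, chr2:137081456-137116644, minus strand) encodes a ligand tied to poor outcome in breast cancer. It stood at 53.7 and 52.1 CPM in scramble + IgG and at 53.9 and 56.3 CPM in scramble + anti-IL-6R, against 90.8 and 98.2 CPM in shMCT-1 + IgG and 93.6 and 109 CPM in shMCT-1 + anti-IL-6R. All shMCT-1 libraries were higher. Between the lines the log2 difference came to 0.88 ± 0.095 within IgG, 0.93 ± 0.095 within anti-IL-6R and 0.91 ± 0.063 across both, a 1.88-fold higher level (edgeR quasi-likelihood test, adjusted p = 6.12e-07).

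Jag2 (ENSMUSG00000002799.6, chr12:112907819-112929776, minus strand), the second Jagged ligand, followed the same order. Its levels were 89.2 and 77.7 CPM, then 85.0 and 89.9 CPM, in the scramble groups with IgG and with anti-IL-6R, and 134 and 133 CPM, then 132 and 136 CPM, in the matching shMCT-1 groups. The 4 shMCT-1 libraries were tightly grouped and all higher. Jag2 differed on the log2 scale by 0.72 ± 0.086 within IgG, 0.67 ± 0.086 within anti-IL-6R and 0.70 ± 0.056 across both (edgeR quasi-likelihood test, adjusted p = 1.79e-06).

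**Figure D2:**
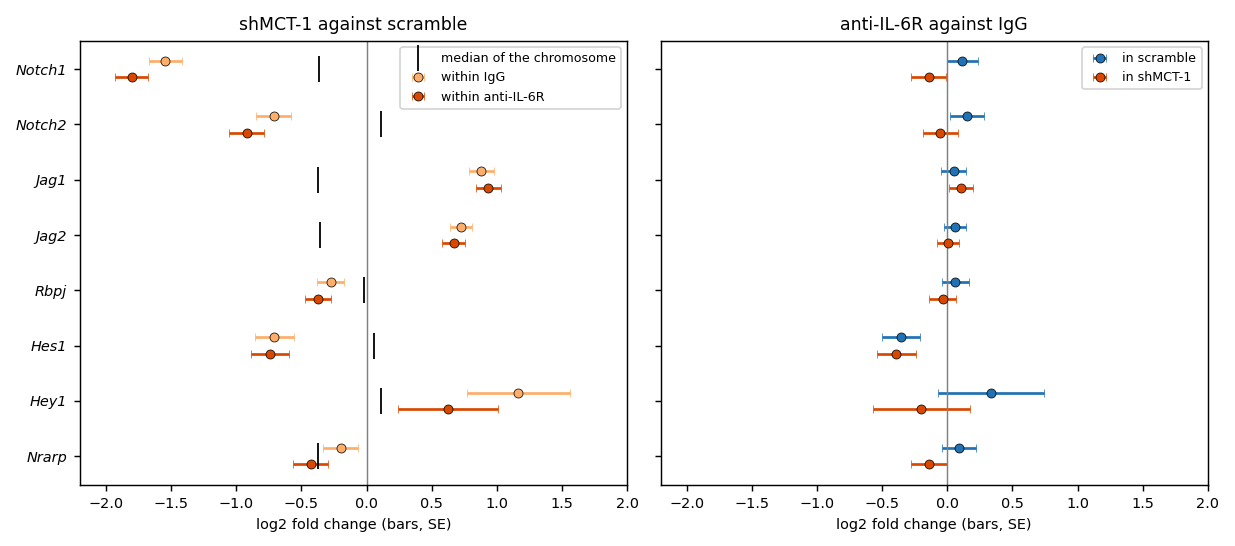
Log2 fold change with its SE for the 8 tested members, shMCT-1 against scramble on the left and anti-IL-6R against IgG on the right, on the same scale. On the left the receptors lie left of 0 and the ligands right of it in both treatments, with black ticks for the median of each gene's chromosome across both treatments. On the right Hes1 is the member furthest below 0 in both lines.

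Levels of different genes can be set side by side only per length, here as CPM per kb of annotated exon. In scramble the order of the mean level was Hes1 (66.8), Notch2 (18.7), Rbpj (15.4), Jag2 (12.3), Nrarp (10.3), Jag1 (9.27), Notch1 (3.89) and Hey1 (0.161), with Notch3 and Heyl at or under 0.006. Neighbours in that order overlapped in their 4 libraries for Jag2 with Nrarp and for Nrarp with Jag1. In shMCT-1 the order was Hes1 (39.2), Jag2 (19.2), Jag1 (16.8), Rbpj (11.9), Notch2 (10.2), Nrarp (8.01), Notch1 (1.179) and Hey1 (0.289). There the libraries of Rbpj overlapped those of Notch2 and those of Notch2 overlapped those of Nrarp. Rbpj depended on the length taken, since its exons of all isoforms sum to 12.8 kb and its longest coding transcript is 5.49 kb. By that transcript it came second in both lines, at 35.9 and 27.7 CPM per kb.

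The summed level of the 3 receptors per kb of exon ran from 20.1 to 24.0 CPM in the scramble libraries and from 9.30 to 13.0 CPM in the shMCT-1 libraries. The summed level of the 2 ligands ran from 20.1 to 22.6 CPM in scramble and from 34.9 to 38.2 CPM in shMCT-1. Per kb of exon, ligand and receptor sums therefore covered overlapping ranges in scramble and lay far apart in shMCT-1. Without length, the receptor sum stood above the ligand sum in scramble, at 229 to 273 and 130 to 146 CPM. In shMCT-1 the receptor sum stood below, at 104 to 144 and 225 to 245 CPM. These sums carry no correction for the relation between fold change and transcript length given below. Within the receptors, Notch1 made up 16.8 to 17.7% of the sum in scramble and 9.72 to 11.2% in shMCT-1, the rest being almost all Notch2. Within the ligands, Jag1 made up 41.8 to 44.5% in scramble and 44.7 to 49.0% in shMCT-1, ranges that lie next to each other. The share of Notch1 was the more unequal of the pair. These shares are a description of the 8 libraries and were not tested.

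**Figure D3:**
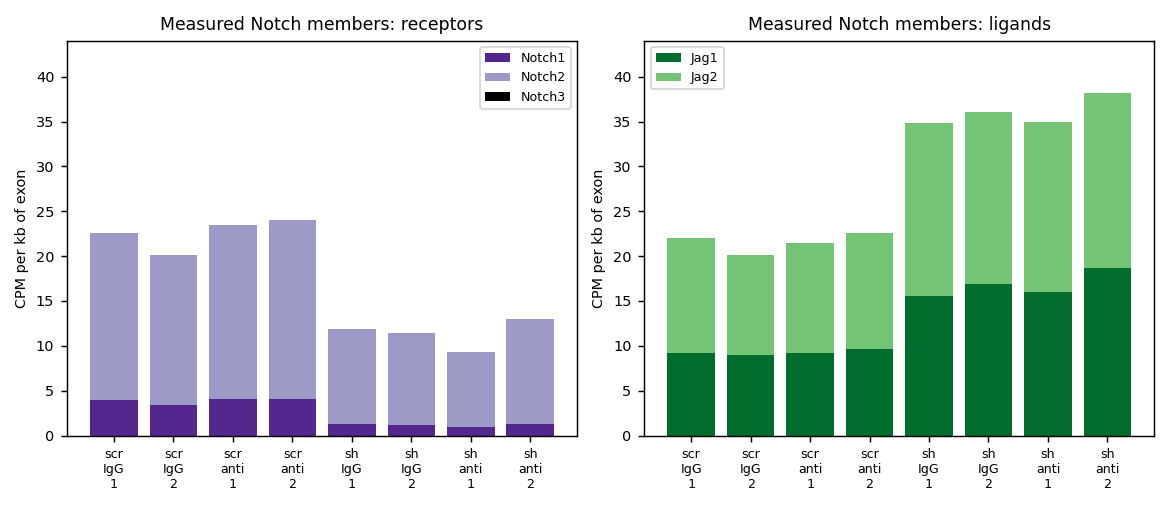
Stacked bars from 0 of the level per kb of exon in each of the 8 libraries, receptors on the left and ligands on the right, in CPM per kb. The receptor bars reach 20.1 to 24.0 in scramble and 9.30 to 13.0 in shMCT-1, the ligand bars 20.1 to 22.6 and 34.9 to 38.2, and Notch3 is too low to be seen.

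Rbpj (ENSMUSG00000039191.12, chr5:53466152-53657362, plus strand) encodes the protein through which all Notch receptors act on DNA. It was measured at 198, 185, 197 and 206 CPM in the scramble libraries and at 153, 155, 133 and 166 CPM in the shMCT-1 libraries, in the order given above. The highest shMCT-1 library stayed below the lowest scramble library. The log2 difference was small, at -0.28 ± 0.10 within IgG (adjusted p = 0.0439), -0.37 ± 0.10 within anti-IL-6R (adjusted p = 0.0122) and -0.32 ± 0.069 across both (adjusted p = 0.00158, edgeR quasi-likelihood test). Within IgG the call was lost when any of 6 libraries was left out in turn, each of the 4 scramble libraries and both shMCT-1 + IgG libraries, with adjusted p-values from 0.0677 to 0.168. Within anti-IL-6R it was lost without scramble + anti-IL-6R replicate 2 (adjusted p = 0.0822) or shMCT-1 + anti-IL-6R replicate 1 (adjusted p = 0.0677).

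Rbpj has a processed pseudogene, Rbpj-ps3 (chr6:46529354-46530794, minus strand), with which reads can be shared, and the expected counts of Rbpj were not whole numbers in any of the 8 libraries. The pseudogene was listed at 77.2 to 82.5 CPM in scramble and at 31.9 to 53.7 CPM in shMCT-1. It held 28.1 to 30.0% of the sum of both in scramble and 19.3 to 24.4% in shMCT-1. With both summed, the log2 difference across treatments was -0.44 (edgeR quasi-likelihood test, adjusted p = 0.000519). The level of Rbpj alone is therefore uncertain, while its direction was the same either way.

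Hes1 (ENSMUSG00000022528.8, chr16:30064384-30067796, plus strand) encodes a repressor that keeps progenitor cells from differentiating. The study singled it out from these same libraries, so its values are no independent evidence of its direction. With edgeR and an exact test, the study listed Hes1 as differing with anti-IL-6R in each line and between the lines under anti-IL-6R. The quasi-likelihood fit used here called Hes1 between the lines only. By quantitative RT-PCR the study also reported lower Hes1 with shMCT-1 and with anti-IL-6R, a measurement that these libraries do not hold. It stood at 148 and 157 CPM in scramble + IgG, 131 and 109 CPM in scramble + anti-IL-6R, 76.3 and 105 CPM in shMCT-1 + IgG, and 68.3 and 69.6 CPM in shMCT-1 + anti-IL-6R. The lines did not overlap, though the lowest scramble library and the highest shMCT-1 library came close. The log2 difference between the lines was -0.71 ± 0.15 within IgG, -0.74 ± 0.15 within anti-IL-6R and -0.72 ± 0.098 across both, a 1.65-fold lower level (edgeR quasi-likelihood test, adjusted p = 6.77e-05). The call held under each of the 16 alternatives for the last comparison, with values from -1.02 to -0.64.

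Hey1 (ENSMUSG00000040289.8, chr3:8663359-8667256, minus strand), a related repressor, rested on 10 to 25 counts per library. Its levels were 0.509, 0.415, 0.576 and 0.605 CPM in scramble and 0.961, 1.07, 0.655 and 1.09 CPM in shMCT-1. All shMCT-1 libraries were higher, by a margin of few counts. On the log2 scale it differed by 1.16 ± 0.40 within IgG (adjusted p = 0.0303), 0.63 ± 0.38 within anti-IL-6R (adjusted p = 0.188) and 0.88 ± 0.27 across both (adjusted p = 0.014, edgeR quasi-likelihood test). Within IgG the call was lost without scramble + IgG replicate 1 (adjusted p = 0.0611), scramble + IgG replicate 2 (0.109), scramble + anti-IL-6R replicate 1 (0.0517) or shMCT-1 + IgG replicate 1 (0.072), and also with length classes (0.0529). Hey1 was above 1 CPM only in shMCT-1 + IgG replicate 2 and shMCT-1 + anti-IL-6R replicate 2, so it was not tested without either one, and it entered the test only through the line where it is high. Its p-values therefore support nothing about its direction. Heyl (ENSMUSG00000032744.4, chr4:123233556-123249875, plus strand) had 1 count in each of 2 libraries and 0 in the rest.

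Nrarp (ENSMUSG00000078202.3, chr2:25180758-25183339, plus strand) was the one tested member whose lines overlapped. It was measured at 29.2 and 22.0 CPM in scramble + IgG, 28.9 and 26.1 CPM in scramble + anti-IL-6R, 23.2 and 20.3 CPM in shMCT-1 + IgG, and 19.5 and 19.8 CPM in shMCT-1 + anti-IL-6R. The log2 difference was -0.20 ± 0.13 within IgG (adjusted p = 0.237), -0.43 ± 0.13 within anti-IL-6R (adjusted p = 0.0214) and -0.31 ± 0.096 across both (adjusted p = 0.0132, edgeR quasi-likelihood test). The IgG value moved to 0.00082 without scramble + IgG replicate 1 and was called without scramble + IgG replicate 2, at -0.37. The anti-IL-6R call was lost without scramble + anti-IL-6R replicate 1 (adjusted p = 0.132), shMCT-1 + anti-IL-6R replicate 1 (0.0802) or shMCT-1 + anti-IL-6R replicate 2 (0.0667), and when scaled within chromosomes (-0.043, adjusted p = 0.809). An antisense gene, Gm38287, covers Nrarp and was listed at no more than 0.357 CPM, and whether the counting used strand is not given in the sources used here.

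Differences between the lines varied by chromosome. Genes on chromosome 2, which carries Notch1, Jag1 and Nrarp, had a median log2 difference of -0.37 between shMCT-1 and scramble across both treatments, and those on chromosome 12, which carries Jag2, had -0.35. The medians were 0.11 on chromosome 3 (Notch2, Hey1), 0.05 on chromosome 16 (Hes1) and -0.02 on chromosome 5 (Rbpj). Jag1 and Jag2 thus rose on chromosomes whose genes were lower as a rule, and stood at 1.29 and 1.05 when scaled within chromosomes. The difference of Nrarp was near the median of its chromosome, and with library sizes scaled within each chromosome it was 0.07 (edgeR quasi-likelihood test, adjusted p = 0.56). Within 1 Mb of Notch1, 8 of 39 tested neighbours were called higher and 18 lower, with a median of -0.21, whereas around Notch2 6 of 10 were called higher and 0 lower.

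The difference between the lines also went with transcript length over the whole table. Among the 11095 tested genes with a coding transcript, the median log2 difference across both treatments was 0.35 for those under 2 kb (2751 genes), 0.07 from 2 to 4 kb, -0.14 from 4 to 6 kb, -0.37 from 6 to 8 kb and -0.61 over 8 kb (606 genes). Of the genes over 8 kb, 75.7% were called lower. In the anti-IL-6R comparisons the same medians stayed between -0.03 and 0.02. Notch1 and Notch2 have longest coding transcripts of 9.49 and 10.5 kb, and Hes1 one of 1.47 kb. The 3 lengths put the receptors where genes were lower as a rule and Hes1 where they were higher.

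With library sizes scaled within classes of transcript length, a setting chosen after seeing the data, the log2 difference across both treatments was -1.14 for Notch1, -0.28 for Notch2 (edgeR quasi-likelihood test, adjusted p = 0.00196), 1.13 for Jag1, 0.82 for Jag2, -0.11 for Rbpj (adjusted p = 0.0782), -1.02 for Hes1, 0.76 for Hey1 and -0.44 for Nrarp. Notch2 within IgG was no longer called (-0.19, adjusted p = 0.0788). The order among the receptors, with Notch1 the lower, and the direction of both ligands and Hes1 were present under each of the 3 scalings. The cause of the relation with length was not tested, and RNA integrity values of the libraries are not given in the sources used here.

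**Figure D4:**
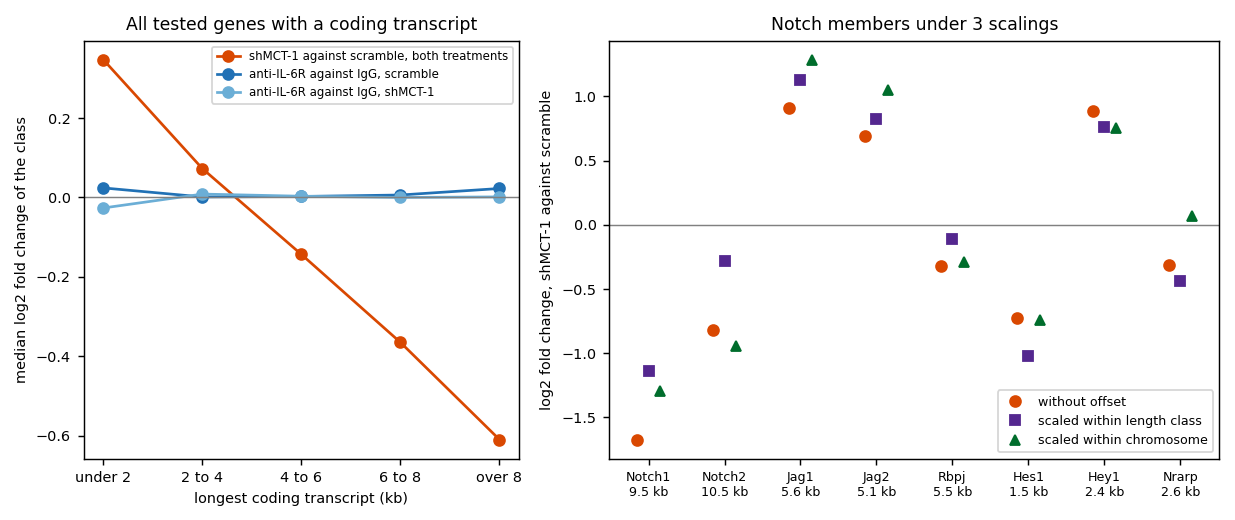
Left, median log2 fold change of all tested genes by length of the longest coding transcript in kb, which runs from 0.35 to -0.61 for shMCT-1 against scramble and stays near 0 for anti-IL-6R against IgG. Right, log2 fold change of each member, shMCT-1 against scramble across both treatments, without offset and with libraries scaled within length class or within chromosome, where Nrarp is the only member that lies on both sides of 0.

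The antibody comparisons asked whether blocking the IL-6 receptor moved these genes. In scramble, 0 of the 8 tested members were called (0% of all genes at an adjusted p under 0.05), and 1 had an unadjusted p under 0.05, against 1.31% of all genes. In shMCT-1 the counts were again 0 (0% of all genes) and 1, against 3.98% of all genes. Across both lines they were 0 (0%) and 1, against 2.79%. For the interaction, which asks whether the antibody acted differently in the lines, they were 0 (0%) and 0, against 2.48%. DESeq2 also called 0 members in each of these comparisons.

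The member with the low unadjusted p was Hes1 each time. Its log2 difference between anti-IL-6R and IgG was -0.36 ± 0.15 in scramble (unadjusted p = 0.0344, edgeR quasi-likelihood test across all genes), -0.39 ± 0.15 in shMCT-1 (unadjusted p = 0.025) and -0.37 ± 0.098 across both lines (unadjusted p = 0.00297, adjusted p = 0.995). Single libraries moved both within-line values. That in shMCT-1 was -0.14 without shMCT-1 + IgG replicate 2 and -0.60 without shMCT-1 + IgG replicate 1, and that in scramble was -0.22 without scramble + anti-IL-6R replicate 2 and -0.50 without scramble + anti-IL-6R replicate 1. The interaction was -0.04 ± 0.21, an SE that leaves room for a difference between the lines as large as the effects themselves. Both anti-IL-6R libraries of Hes1 lay below both IgG libraries in each line, which 13.4% of all tested genes did in scramble, 17.3% in shMCT-1 and 2.53% in both. With no filter beyond a count above 0, Hes1 across both lines was called (-0.35, adjusted p = 0.0021 by the same test), as were 73 of 27528 genes. Over its other 15 alternatives the adjusted p ran from 0.724 to 1.

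Over all 8 tested members, the log2 differences between anti-IL-6R and IgG in scramble ran from -0.36 for Hes1 to 0.34 ± 0.41 for Hey1, with Notch2 at 0.15 ± 0.13. Both anti-IL-6R libraries lay above both IgG libraries for Notch1, Notch2, Jag1 and Hey1, 4 of the 8 tested members, where 16.7% of all tested genes did so. In shMCT-1 they ran from -0.39 for Hes1 to 0.11 ± 0.094 for Jag1, which was 0.0063 without shMCT-1 + anti-IL-6R replicate 2 and 0.22 without shMCT-1 + anti-IL-6R replicate 1, and no member had both anti-IL-6R libraries above. There Nrarp joined Hes1 with both below, by less than 1 CPM. The interaction ran from -0.54 ± 0.55 for Hey1 to 0.055 ± 0.13 for Jag1, and that of Hey1 was -0.21 without shMCT-1 + anti-IL-6R replicate 1. Apart from Hey1, the SE of the differences within a line was 0.085 to 0.15.

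Among all tested genes, those whose pattern over the 8 libraries came nearest to Hes1, by the root mean square difference of centred log2 CPM, were Mospd2 (0.121), Dusp1 (0.14) and Jun (0.14). Dusp1 and Jun belong to the immediate early genes, which cells switch on within minutes of a stimulus. Between the lines they differed by -0.71, -0.90 and -0.75 on the log2 scale across both treatments. For Notch1 the nearest were Dhrs9 (0.0876), Tmem245 (0.0918) and Rnf213 (0.116), at -1.68, -1.63 and -1.53. The libraries share their depth and line between all these genes, so the likeness is a description.

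Around the members, a list of 93 further genes of the pathway was read, of which 79 were tested. Across both treatments 27 were called higher in shMCT-1 and 35 lower, 78.5% in either direction beside 69% of all genes, with a median log2 difference of -0.03 beside 0.01. Within IgG 22 were called higher and 27 lower, 62% beside 54.4% of all genes, and within anti-IL-6R 22 and 24, 58.2% beside 54.3%. Anti-IL-6R against IgG gave 0 calls in either line, and 1 and 2 unadjusted p-values under 0.05 in scramble and shMCT-1. The 1 in scramble was Dll4 (0.61 ± 0.25) and the 2 in shMCT-1 were Bend6 (0.44 ± 0.15) and Bhlhe40 (0.22 ± 0.084), named after their values were seen.

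Of the 10 listed genes that cut the receptor, 9 were tested and all 9 were called across both treatments, 7 higher and 2 lower, with a median of 0.49, where 35% of all genes were called higher and 34% lower. Nicastrin (Ncstn), the γ-secretase subunit that receives the substrate, stood at 46.4 to 56.4 CPM in scramble and 76.6 to 81.4 CPM in shMCT-1 (0.63 ± 0.064). Psen2, which holds the catalytic site, stood at 11.7 to 13.1 CPM in scramble and 17.3 to 19.5 CPM in shMCT-1 (0.63 ± 0.074), and Aph1b, another subunit, stood at 3.13 to 3.34 and 3.82 to 5.13 CPM (0.56 ± 0.14). The protease Adam17 was lower, at 114 to 127 CPM in scramble and 70.0 to 79.03 CPM in shMCT-1 (-0.61 ± 0.061). It lies on chromosome 12 and stood at -0.26 when scaled within chromosomes. Scaled within length classes, 6 of the 9 were called higher and 2 lower, with Psen2 at 0.39, where 66.3% of all genes were called. Scaled within chromosomes, Ncstn and Psen2 each stood at 0.42 and Aph1b at 0.55.

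Of the other ligands and receptors, 4 of 7 were tested, 2 of them called higher and 1 lower, where 69% of all genes were called. Dll4, a Delta ligand best known from vessel sprouting, rose, with 1.37 to 2.78 CPM in scramble and 5.24 to 6.83 CPM in shMCT-1 (1.47 ± 0.19), and Dll1 was slightly lower (-0.20 ± 0.075). The Dll1 call was lost without scramble + IgG replicate 1, either scramble + anti-IL-6R library, shMCT-1 + IgG replicate 1 or either shMCT-1 + anti-IL-6R library (adjusted p = 0.0593 to 0.113, edgeR quasi-likelihood test). Dlk2, a Delta-like protein held to dampen Notch, had 25.9 to 37.3 CPM over all 8 libraries and differed by 0.07 (adjusted p = 0.506 by the same test), or by -0.23 with length classes (adjusted p = 0.0195). Notch4, the fourth receptor, rose, with 1.42 to 2.03 CPM in scramble and 2.09 to 4.79 CPM in shMCT-1 (1.03 ± 0.25). Dll4 and Notch4 are known from endothelium. The endothelial marker Cdh5 stood at 0 to 0.124 CPM in scramble and 0.454 to 1.46 CPM in shMCT-1, and Kdr at 0 to 0.0415 and 0.0426 to 0.137 CPM. Pecam1 (0.096 to 0.182 and 0.0504 to 0.458 CPM) and Tek (0 to 0.0302 and 0 to 0.0911 CPM) overlapped between the lines. Emcn was at 0 in every scramble library and at most at 0.0458 CPM in shMCT-1. The part of endothelial RNA in these differences was not tested. Dlk1 was at 0 in every library, and Dll3 and Dner stayed under 0.4 CPM.

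Enzymes that put sugars on the receptor moved both ways, with 2 of 7 tested called higher and 2 lower. That is 57.1% in all beside 69% of all genes. Lfng, the fringe enzyme that tunes which ligand a receptor answers, rose, with 7.34 to 8.10 CPM in scramble and 12.2 to 14.7 CPM in shMCT-1 (0.87 ± 0.089). Pofut1, which adds the first fucose, fell, with 54.2 to 63.4 CPM in scramble and 36.9 to 41.8 CPM in shMCT-1 (-0.57 ± 0.067), but stood at -0.35 with length classes and at -0.19 within chromosomes, being on chromosome 2. Poglut1 differed by 0.33 and Gxylt1 by -0.34, the latter at -0.12 with length classes (edgeR quasi-likelihood test, adjusted p = 0.15). Mfng and Gxylt2 were too low to test.

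All 6 tested genes of ligand endocytosis, which pulls on a bound ligand, were called, 2 higher and 4 lower, where 69% of all genes were called. Epn2 fell, with 143 to 153 CPM in scramble and 67.2 to 75.1 CPM in shMCT-1 (-0.998 ± 0.055). Among the ubiquitin ligases that mark ligands, Mib1 (-0.70 ± 0.076), Neurl1b (-0.60 ± 0.099) and Neurl1a (-0.35 ± 0.094) were lower too. Mib2, named after its values were seen, was called higher, at 0.34, or 0.32 with length classes. Mib1 has a coding transcript of 10.2 kb and stood at -0.17 with length classes (edgeR quasi-likelihood test, adjusted p = 0.00637), where Neurl1b stood at -0.39.

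Among 13 tested genes of receptor trafficking and turnover, 3 were called higher and 7 lower, 76.9% in all beside 69% of all genes. Numb, which sends receptors to degradation, fell, with 45.2 to 47.0 CPM in scramble and 22.9 to 27.3 CPM in shMCT-1 (-0.83 ± 0.061), while its relative Numbl rose, with 6.18 to 7.11 CPM in scramble and 10.2 to 13.3 CPM in shMCT-1 (0.89 ± 0.11). Itch, a ubiquitin ligase that acts on Notch, fell by 0.83 on the log2 scale, and Rita1, which exports RBPJ from the nucleus, rose by 0.66. With length classes the counts were 3 higher and 2 lower of the 13, where 66.3% of all genes were called. The difference of Rita1 was then 0.37. Scaled within chromosomes, Numb on chromosome 12 stood at -0.47 and Itch on chromosome 2 at -0.45.

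In the nucleus, 5 of 8 tested coactivators were called lower and 0 higher, 62.5% in all beside 69% of all genes. With length classes 4 were called lower and 0 higher, where 66.3% of all genes were called. The acetyltransferases Ep300 and Crebbp, which act with the Mastermind complex, differed by -1.22 ± 0.14 and -0.995 ± 0.097, or by -0.69 and -0.46 with length classes. Ep300 stood at 157 to 164 CPM in scramble and at 47.5 to 84.8 CPM in shMCT-1. The Mastermind gene Maml3 differed by -0.50 ± 0.086 and by 0.04 with length classes (edgeR quasi-likelihood test, adjusted p = 0.665), while Kat2b differed by -0.29, or -0.16 with length classes. Of 13 tested corepressors, 2 were called higher and 6 lower, 61.5% in all beside 69% of all genes. The 2 higher, named after their values were seen, were Hdac1 (0.36) and Kdm1a (0.27), at 0.13 and 0.19 with length classes. Among the 6 lower were Spen (-1.17 ± 0.13), Kdm5a (-1.11 ± 0.10), Ncor1 (-0.88 ± 0.12) and Cir1 (-0.55 ± 0.095), which hold RBPJ targets silent. The first 3 have coding transcripts of 9.04 to 12.3 kb, and with length classes they stood at -0.64, -0.58 and -0.35. Cir1, on chromosome 2, stood at -0.17 when scaled within chromosomes and was no longer called (edgeR quasi-likelihood test, adjusted p = 0.133).

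Other factors of the HES and HEY kind were mostly near 0, with Hes2 and Hes5 at 0 in every library and Hes3, Hey2 and Helt under 0.2 CPM. Of 4 tested, 3 were called higher and 1 lower, where 35% of all genes were called higher and 34% lower. Hes7, named after its values were seen, was 1 of the 3, with 0.664 to 1.09 CPM in scramble and 0.907 to 1.73 CPM in shMCT-1. Only IgG replicate 1 of its scramble libraries was above 1 CPM, so the filter partly fixed its place. Its call was lost with length classes (adjusted p = 0.11) and within chromosomes (0.0659, edgeR quasi-likelihood test). Bhlhe41, a repressor of the circadian clock, fell, with 88.1 to 91.7 CPM in scramble and 9.22 to 11.6 CPM in shMCT-1 (-3.07 ± 0.068), and its relative Bhlhe40 rose, with 98.1 to 103 CPM in scramble and 137 to 173 CPM in shMCT-1 (0.68 ± 0.07). Hes6, which counters HES1, rose, with 2.00 to 2.91 CPM in scramble and 7.56 to 8.96 CPM in shMCT-1 (1.85 ± 0.15). Among the 6 Groucho and TLE corepressors, partners of HES proteins, 2 were called higher and 3 lower, 83.3% in all beside 69% of all genes. Aes differed by 0.75, Tle3 by 0.33, Tle2 by -0.70 and Tle4 by -0.64. With length classes Aes stood at 0.45 and Tle3 at 0.55.

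Of 9 tested genes reported elsewhere as Notch targets, 4 were called higher and 4 lower, with a median of 0.03. That is 88.9% in all beside 69% of all genes. Id1 fell, with 53.1 to 64.9 CPM in scramble and 31.3 to 39.2 CPM in shMCT-1 (-0.71 ± 0.07) and Myc fell, with 561 to 596 CPM in scramble and 374 to 437 CPM in shMCT-1 (-0.41 ± 0.065). The value of Id1, on chromosome 2, was -0.33 within chromosomes and -1.12 with length classes. Cdkn1a rose by 0.58 ± 0.069, or 0.35 with length classes, and Id3 by 0.57 ± 0.12, the latter at 0.17 with length classes (edgeR quasi-likelihood test, adjusted p = 0.118). The listed targets thus did not share the direction of Hes1. Each log2 difference given for a listed gene with its SE, or as a rise or fall, was called by edgeR's quasi-likelihood test, apart from the 3 antibody values.

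**Figure D5:**
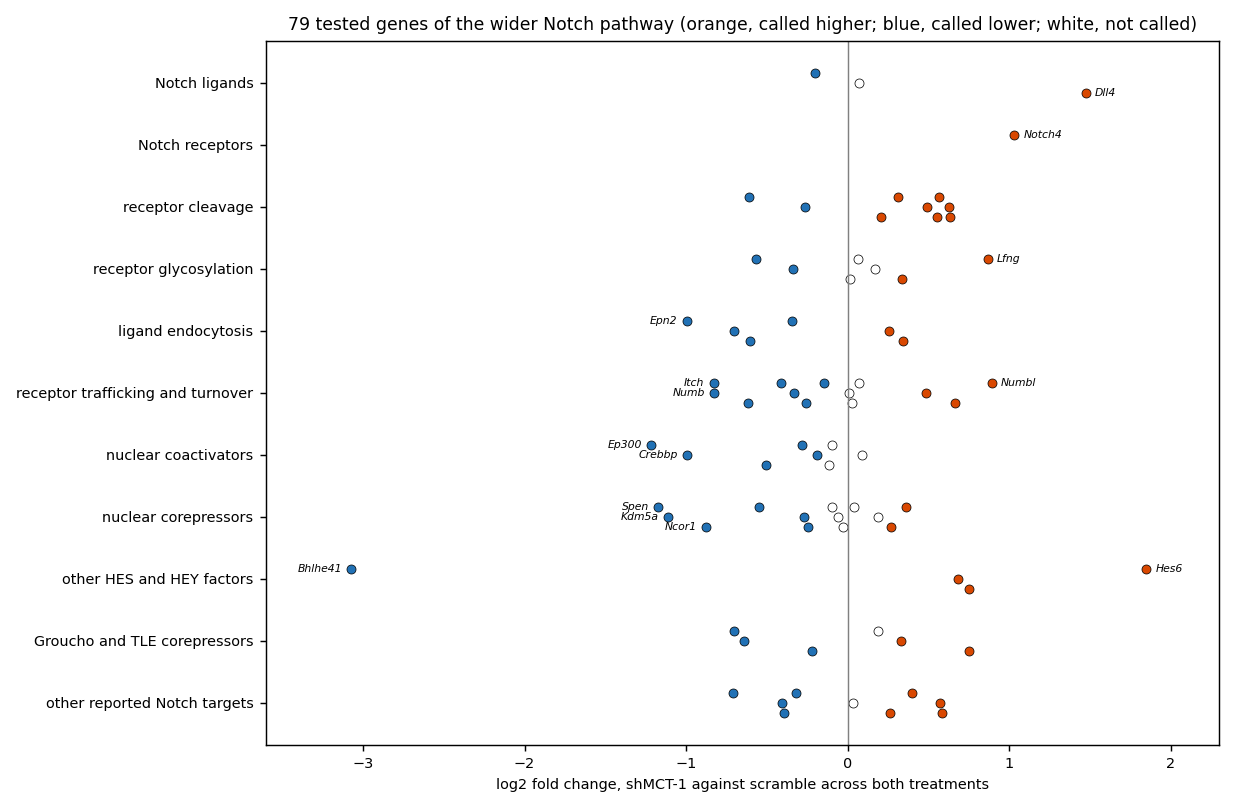
Log2 fold change, shMCT-1 against scramble across both treatments, of the 79 tested genes of the wider pathway by list, 1 point per gene, with names beyond 0.8 in size. Receptor cleavage has 7 points called higher and 2 lower, nuclear coactivators have 5 called lower and 0 higher, and Bhlhe41 at -3.07 is the furthest point. Of all genes tested, 69% were called.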

How the data were processed

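Per the submitters' notes, the reads of poly(A) libraries were trimmed (cutadapt), aligned with STAR 2.7.0d to the mouse build mm10 and counted with RSEM on GENCODE annotation, and the authors deposited the resulting expected counts per gene. These values are scaled neither for depth nor for length, 29.6% of those above 0 were not whole, and all were rounded before testing. Positions and lengths came from GENCODE M21 (GRCm38), in which 54495 of the 54532 identifiers were found without their version. Promoters came from RefSeq.

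Library totals were 19839299 to 33063570 counts. The 12704 genes above 1 CPM in 2 or more libraries were tested with edgeR 4.0.16 (R 4.3.3), TMM library sizes and quasi-likelihood tests on the 4 group means, or on an additive model for comparisons across treatments or lines. p-values were adjusted over all genes by the Benjamini-Hochberg method, with calls under 0.05. The fit was tested on simulated data. The groups are those of the labels.

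The 10 members, the 93 pathway genes and the marker lists were chosen with earlier results of these data known. For each pathway list, up to 4 called genes with the largest difference across both treatments and no overlap between the lines were named, beside the members, Mcts1, the 3 genes nearest in pattern to Hes1 and Notch1 (centred log2 CPM, prior count 2), genes too low to test and copies or overlapping genes. Alternatives were RLE size factors, no filter, filterByExpr, DESeq2 1.42.0, edgeR's exact test, fits of 4 libraries, a replicate block, scaling within chromosomes, thinning to the smallest total, unadjusted p-values and leaving out each library. Scaling within length classes, Rbpj-ps3 added to Rbpj and shares by coding transcript were chosen after seeing the data.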

Additional observations from a re-analysis of the deposited data

How the results depend on the processing

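The alternatives gave 807 values for the members, Mcts1, the shares and the counts of calls, and 608 for the 38 named pathway genes across both treatments. Of the latter, 595 kept direction and call, 12 lost the call (9 of them for Dll1) and 1 turned (Maml3, 0.035 with length classes). The counts within single pathway lists were recomputed with length classes only. The difference between the lines kept its direction and its call for Notch1, Jag1, Jag2 and Hes1 under each one run, and for Notch2 under each except within IgG with length classes (-0.19). Scaling within length classes left 4 calls among the members within IgG, where 7 were made, without Notch2, Rbpj (-0.067) and Hey1. Under that scaling 51.9% of all genes were called within IgG, and 54.4% without it. Scaling within chromosomes turned Nrarp to 0.17 within IgG and 0.066 across both treatments. Counted by an unadjusted p under 0.05, anti-IL-6R against IgG gave 1 member in scramble, 1 in shMCT-1 and 1 across both lines, and 1 and 2 genes of the wider pathway in scramble and shMCT-1. Without a filter beyond a count above 0, 1 member (Hes1) was called across both lines. Calls for Rbpj, Hey1 and Nrarp within 1 treatment changed with single libraries, as given beside them, and Rbpj within IgG was also not called without the filter (adjusted p = 0.0636), with filterByExpr (0.059) or within chromosomes (0.0745), each by edgeR's quasi-likelihood test. Hey1 within IgG was not called by DESeq2 (adjusted p = 0.122) or without the filter (0.0581), nor across both treatments after thinning (0.0537). The cause was not tested.

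Leaving out each library in turn gave 29 to 48 calls in the wider pathway within anti-IL-6R, where 46 were made, the 29 being without scramble + anti-IL-6R replicate 2. It gave interactions of -0.25 to 0.21 for Hes1, -0.68 to -0.21 for Hey1 and -0.033 to 0.18 for Jag1, and -0.37 to 0.00082 for Nrarp within IgG, so the interactions of Hes1 and Jag1 have no settled sign.

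The Notch1 share of the receptors was 23.4% in scramble and 14.4% in shMCT-1 per longest coding transcript, and 21.6% and 13.2% without length. The Jag1 share of the ligands was 36.5% and 39.9%, and 38.8% and 42.2%. Both shares were higher or lower in the same line as per exon length.

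The labels do not say that replicate numbers pair the samples, and correlations of the replicate differences between groups were -0.08 to 0.106. With a replicate block, 7, 7 and 8 members were called between the lines within IgG, within anti-IL-6R and across both, and 0 in each antibody comparison, so no call changed. In the wider pathway the block gave 53 and 48 calls within IgG and within anti-IL-6R, where 49 and 46 were made. Of all genes, the block called 55.4% within IgG, 55.2% within anti-IL-6R and 69.2% across both. Without it 54.4%, 54.3% and 69% were called. Depth limits Notch3, Heyl and Hey1, with at most 25 counts in a library.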
